A study of Mus musculus with 8 samples.

Results

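The mucin genes Muc1, Muc2, Muc3, Muc3a, Muc4, Muc5ac and Muc13 were chosen by their symbols in the lists of gene values for small intestinal crypts and villi of mice. All 7 were among the 11554 genes listed for crypts, and 6 of them, without Muc1, were among the 12701 genes listed for villi. The 2 tissues together listed 13028 genes. Bulk RNA-seq covered Ctrl and Gli1-PtgscKO mice on the C57BL/6 background, with 2 libraries for each genotype and tissue, collected 1 month after tamoxifen. In Gli1-PtgscKO mice a tamoxifen-inducible Cre under Gli1 removes floxed Ptgs1 and Ptgs2, which encode COX1 and COX2, from Gli1-expressing mesenchymal cells, so the epithelium sequenced here was not itself the target of the deletion. For the Ctrl mice the sample labels name Gli1-CreERT2 and Rosa26-tdTomato and give the genotype as WT, whereas the study's text describes mice with both floxed genes and no Cre. The age and sex of the mice behind each library were not given in the sources used here.

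Mucins are large glycoproteins whose serine- and threonine-rich stretches carry dense O-linked glycans. Secreted gel-forming mucins, such as Muc2 from intestinal goblet cells and Muc5ac from gastric surface cells, polymerise into the mucus that covers the epithelium. Membrane mucins, here Muc1, Muc3, Muc3a, Muc4 and Muc13, are anchored in the apical membrane, where they form the glycocalyx and can signal through their cytoplasmic tails. Prostaglandin E2, a product of the COX enzymes, is known to act on intestinal epithelial cells through the receptor EP4 and cAMP, and it stimulates mucus secretion. The comparison asks how each kind of mucin transcript differed when the mesenchymal source of prostaglandins was removed.

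On GRCm38, the assembly also called mm10, the secreted mucin genes lie side by side. Muc2 is at chr7:141690340-141754693 on the forward strand, and Muc5ac follows 34.3 kb downstream at chr7:141788972-141819231 on the same strand, between Muc2 and Muc5b. Muc3 at chr5:137134922-137149322 and Muc3a at chr5:137208813-137212389 are both on the reverse strand and 59.5 kb apart. Muc4 is at chr16:32735886-32782391, Muc13 at chr16:33794037-33819934 and Muc1 at chr3:89229057-89233381, all on the forward strand. The coding sequences annotated in GENCODE M21 differ in how much of the repeated, glycan-bearing stretch they hold, which is shown here by the most frequent 24-base word of each. The words are printed in lower case from the 5′ end, at the position of their first copy.
Muc5ac, chr7:141808654-141808677: accagctcacccaatacaggaaag
Muc4, chr16:32750540-32750563: cagctcagctccaagtacaacaca
Muc13, chr16:33799001-33799024: agtcaatctccaggtagttcatct
Muc1, chr3:89230027-89230050: cctccaggggactccaccagctct
The Muc5ac word occurred in 24 exact, non-overlapping copies, the Muc4 word in 10, the Muc13 word in 7 and the Muc1 word in 2. Words present more than once covered 43.1% of the Muc4 coding sequence, 29.8% of that of Muc13, 27.1% of that of Muc5ac and 18.9% of that of Muc1. In the longest coding sequences annotated for Muc2, Muc3 and Muc3a no 24-base word occurred more than once. Muc2 was annotated with 8 transcripts of at most 2926 bases, and Muc3 with transcripts of at most 1853 bases. Despite their names, the Muc3 and Muc3a transcripts had no identical run longer than 10 bases on either strand, and no 25-base word was shared between any of the 7 genes. Of the 100-base words, 2.81% in Muc4 and 3.28% in Muc13 also occurred in transcripts of other genes, and 0% in the other 5.

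RefSeq promoters were given for 5 of the 7 genes, without Muc3a and Muc5ac. The 250 bases before the start are printed for Muc2 and Muc3, whose transcripts were lower in both Gli1-PtgscKO crypt libraries, and for Muc1, whose transcript was higher. The windows of Muc13, also lower in both, are not printed. Capitals mark 6 short words searched for on either strand. The word TGACG is the half-site bound by factors that respond to cAMP. The GATA factors of the gut recognise AGATAA, and the intestinal caudal-type homeobox factors recognise a core written here as TTTAT. The E-box of goblet cell factors was searched for as CAGCTG, the TATA box of the core promoter as TATAAA, and the box of Sp and Klf factors, called the GC box, as GGGCGG. The TATA box word contains the other strand of the caudal core, so each of its matches also counts as the latter. The sequences are from GRCm38.p6 and run 5′ to 3′ on the gene's own strand. The RefSeq start of Muc3 lies 16.7 kb upstream of the start annotated in GENCODE M21, so its window is not next to the Muc3 interval given above, whereas those of Muc1 and Muc2 adjoin the GENCODE starts.
Muc2, chr7:141690090-141690339, forward: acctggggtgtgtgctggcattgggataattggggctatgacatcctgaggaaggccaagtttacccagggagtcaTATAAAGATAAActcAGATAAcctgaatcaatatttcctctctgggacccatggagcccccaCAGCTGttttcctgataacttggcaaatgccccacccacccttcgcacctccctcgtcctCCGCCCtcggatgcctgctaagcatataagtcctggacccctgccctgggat
Muc3, chr5:137166047-137166296, reverse: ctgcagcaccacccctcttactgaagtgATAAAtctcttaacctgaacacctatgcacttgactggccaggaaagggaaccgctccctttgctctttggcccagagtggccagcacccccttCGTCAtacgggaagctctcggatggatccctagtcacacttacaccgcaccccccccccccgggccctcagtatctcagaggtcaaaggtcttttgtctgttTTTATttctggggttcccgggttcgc
Muc1, chr3:89228806-89229055, forward: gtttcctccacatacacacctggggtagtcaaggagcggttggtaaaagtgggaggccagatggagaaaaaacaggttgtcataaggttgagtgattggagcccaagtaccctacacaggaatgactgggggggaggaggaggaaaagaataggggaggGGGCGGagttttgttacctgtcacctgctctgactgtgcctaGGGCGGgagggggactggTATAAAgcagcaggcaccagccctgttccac
The Muc2 window held the GATA word beginning 169 and 159 bases before the start, the E-box at 112, 1 GC box at 52 and the TATA box word at 174. The cAMP half-site was found in the Muc3 window alone, 128 bases before the start, and in none of the windows of Muc1, Muc2, Muc4 and Muc13. The Muc1 window held the TATA box word 31 bases before the start and GC boxes at 91 and 49, and the Muc4 window held the TATA box word at 36. The Muc13 window that adjoins its GENCODE start held only the caudal core, at 179, and its other window held none of the 6 words. Over all 32851 promoter windows of this length, the cAMP half-site was present in 17.8%, the GATA word in 9.99%, the caudal core in 37.3%, the E-box in 13.0%, the TATA box in 12.4% and the GC box in 32.7%. A match is a description of these letters.

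Values are normalized counts, the reads of a gene divided by the size factor of its library. Reads on listed genes numbered 16853017 to 21121714 in the crypt libraries and 13477600 to 15751024 in the villus libraries. The 2 Ctrl villus columns were identical for all 12701 genes and were counted as 1 library. Ptgs1 was listed at 164 to 365 normalized counts in Ctrl crypts and 178 to 199 in Gli1-PtgscKO crypts, which overlap, and Ptgs2 and Gli1 were not listed, so the deletion could not be checked in this epithelium. The tissue labels fitted their markers. The 7 stem cell markers summed to 91874 to 102404 normalized counts in crypts and 2992 to 5034 in villi, and the 10 enterocyte markers to 85045 to 126346 in crypts and 347503 to 502335 in villi.

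**Figure D1:**
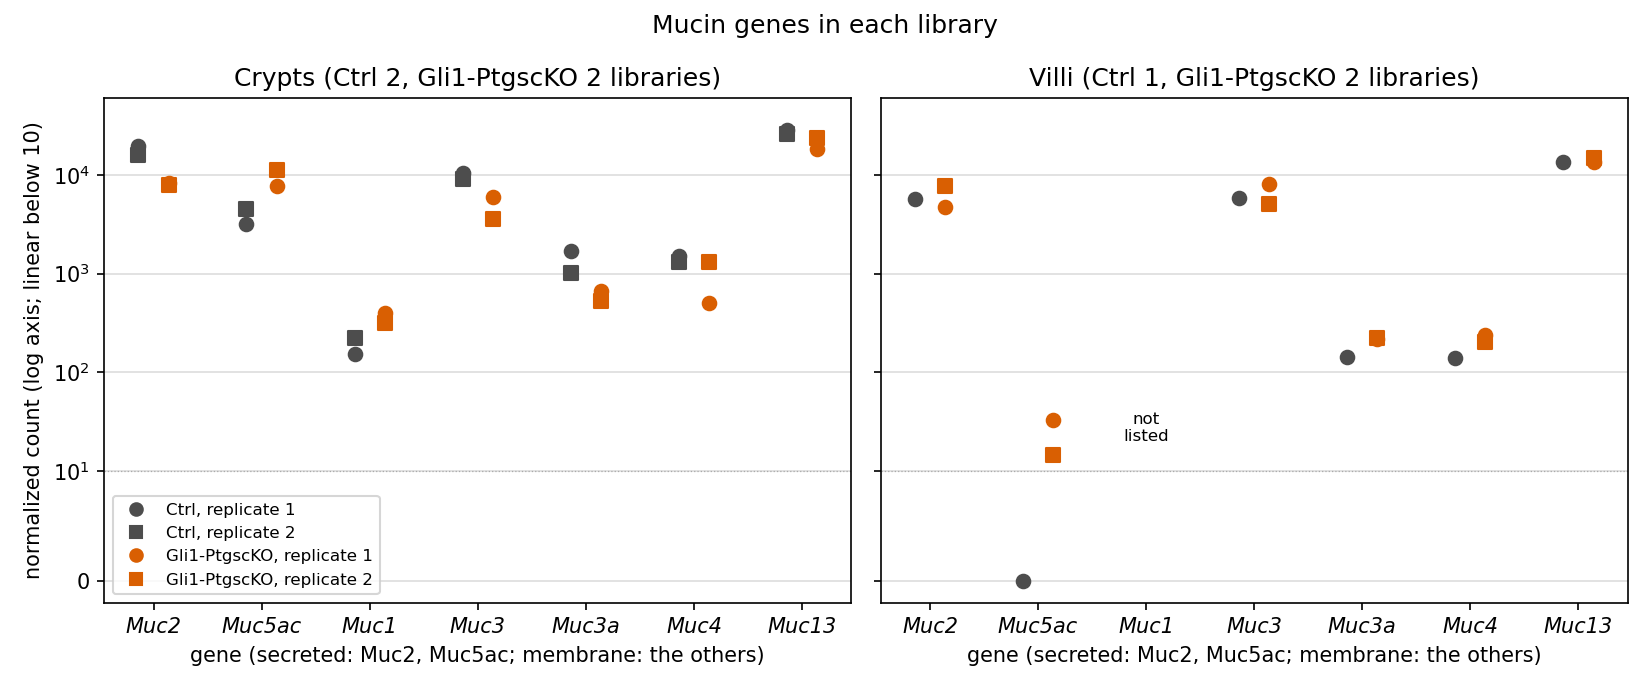
Normalized counts (vertical axis, logarithmic above 10 and linear below) of the 7 mucin genes in each distinct library of crypts (left) and villi (right), with circles for replicate 1 and squares for replicate 2. In crypts Muc2, Muc3, Muc3a and Muc13 lie lower and Muc5ac and Muc1 higher in both Gli1-PtgscKO libraries, and in villi Muc5ac is at 0 in Ctrl.

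In crypts the intestinal gel-forming mucin Muc2 fell while the gastric gel-forming mucin Muc5ac rose. The normalized count of Muc2 was 19796 and 15809 with the Ctrl genotype against 8235 and 7934 in Gli1-PtgscKO crypts. The groups did not overlap, and the Gli1-PtgscKO pair lay much closer together than the Ctrl pair. The means were 17803 ± 2819 and 8084 ± 213 (SD, n = 2 each), a 2.20-fold lower level with a log2 fold change of -1.13 (SE 0.28, 95% interval -1.79 to -0.47). By limma-trend the unadjusted p was 0.00520, and Muc2 had the lowest p of the 5936 genes with a lower level. The study had already reported this fall from its crypt RNA-seq, so the result here is no separate support. The study also reported lower Muc2 by immunostaining and higher Muc2 expression in organoids given prostaglandin E2. Because the RNA is from bulk tissue, fewer cells that express a gene and less RNA per cell cannot be told apart.

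Muc5ac, which is normally a product of gastric surface cells, was at 3153 and 4516 normalized counts in Ctrl crypts and at 7718 and 11180 in Gli1-PtgscKO crypts. Both Gli1-PtgscKO libraries were above both Ctrl libraries, by 2.46-fold on the means of 3835 ± 964 and 9449 ± 2448 (SD, n = 2 each). The log2 fold change was 1.30 (SE 0.31, 95% interval 0.55 to 2.05), with an unadjusted p of 0.00472 by limma-trend. Muc5ac was thus already transcribed in Ctrl crypts, at 172 and 238 reads for every 1000000 reads on listed genes (RPM). Within a library the ratio of Muc5ac to Muc2 reads does not depend on the size factor. It was 0.159 and 0.286 in Ctrl crypts and 0.937 and 1.41 in Gli1-PtgscKO crypts, 5.39-fold higher on geometric means. In 1 Gli1-PtgscKO library the neighbouring genes were thus read about equally often, and in the other Muc5ac reads outnumbered Muc2 reads. An exact permutation test of 2 against 2 libraries cannot give a two-sided p under 0.333, so no such p is given for ratios.

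Of the 7 genes, Muc5ac and Muc2 passed the threshold of an unadjusted p under 0.01 with an absolute log2 fold change over 1. Over all 11554 genes this threshold called 20 higher, 0.173%, and 1 lower, 0.00866%, which is Muc2 itself. At an adjusted p under 0.05 limma-trend called 0 genes, 0%, with adjusted p = 1.00 for each of the 7 mucins. At an unadjusted p under 0.05 there were 73, and at an adjusted p under 0.05 edgeR called 0 and DESeq2 called 11. Without the second Gli1-PtgscKO crypt library the threshold called 593 genes higher and 288 lower. The Muc2 call was lost without the first Ctrl library (log2 fold change -0.97, unadjusted p = 0.152) and without the second (-1.29, 0.0623). The Muc5ac call was lost in the same pair of fits (1.04, 0.104, and 1.56, 0.0144).

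Among the membrane mucins, Muc3 and Muc3a were lower by about as much as Muc2, and Muc1 was higher. Muc3, an abundant mucin of the enterocyte brush border, was at 10331 and 9097 normalized counts in Ctrl crypts and at 5968 and 3584 in Gli1-PtgscKO crypts. The groups did not overlap, and the means of 9714 ± 872 and 4776 ± 1686 (SD, n = 2 each) gave a log2 fold change of -1.07 (SE 0.32) with an unadjusted p of 0.0130 by limma-trend, above the threshold of 0.01. Muc3a was at 1674 and 1024 in Ctrl and at 673 and 529 in Gli1-PtgscKO crypts. Again the groups did not overlap, with a log2 fold change of -1.13 (SE 0.32) and an unadjusted p of 0.0103 by limma-trend. The ratio of Muc3a to Muc3 reads overlapped between the genotypes, at 0.113 to 0.162 in Ctrl crypts and 0.113 to 0.147 in Gli1-PtgscKO crypts. By p, Muc2, Muc3a and Muc3 ranked 1, 2 and 4 among the 5936 genes with a lower level.

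Muc1, a membrane mucin with a signalling cytoplasmic tail that is prominent in stomach and other glandular epithelia, was at 155 and 221 normalized counts in Ctrl crypts and at 397 and 313 in Gli1-PtgscKO crypts, 1.89-fold higher on the means. The groups did not overlap, and the log2 fold change of 0.93 (SE 0.35, 95% interval 0.10 to 1.76) had an unadjusted p of 0.0337 by limma-trend and did not pass the threshold.

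Muc13, a short membrane mucin of the intestinal surface, was at 28162 and 25850 normalized counts in Ctrl crypts and at 18240 and 23799 in Gli1-PtgscKO crypts. The Gli1-PtgscKO libraries were both lower, but the log2 fold change of -0.37 had a 95% interval from -1.13 to 0.39. The unadjusted p was 0.283 by limma-trend. Muc4, a long membrane mucin that can bind the receptor ErbB2, was at 1496 and 1301 in Ctrl crypts and at 507 and 1322 in Gli1-PtgscKO crypts. The groups overlapped, since the second Gli1-PtgscKO library lay between the Ctrl libraries, and the log2 fold change was -0.77 (SE 0.45, unadjusted p = 0.131 by limma-trend). In the first Gli1-PtgscKO crypt library, where Muc4 was low, the log2 difference from Ctrl fell with transcript length over 11552 genes (Spearman's rho -0.657), and in the second it rose (0.311). Of the transcripts annotated in GENCODE M21, those of Muc4 and Muc5ac are the longest of the 7, at 11277 and 10752 bases. With a length correction the log2 fold change was -0.44 for Muc4, 1.62 for Muc5ac, -1.18 for Muc2, -1.24 for Muc3 (unadjusted p = 2.24e-04) and -1.30 for Muc3a (unadjusted p = 0.00199), so that Muc3 and Muc3a then passed the threshold. They also passed it under library size scaling (unadjusted p = 0.00601 and 0.00756 by limma-trend) and by DESeq2 (0.00288 and 0.00180). The length-corrected Muc2 value rests on its longest annotated transcript of 2926 bases. With lengths taken from the union of exons, 7127 bases for Muc2, it was -1.02 (unadjusted p = 0.00329 by limma-trend).

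In all, 4 of the 7 mucins were lower and 2 higher in both Gli1-PtgscKO crypt libraries, and 1 overlapped. Over all genes tested, 11.3% were lower and 9.73% higher in both, and the median log2 fold change was -0.01. The median over the 7 was -0.77. Together the 7 took 0.353% (95% Wilson interval 0.350% to 0.355%) and 0.304% (0.302% to 0.306%) of the reads on listed genes in Ctrl crypts, and 0.204% (0.202% to 0.206%) and 0.258% (0.256% to 0.261%) in Gli1-PtgscKO crypts. Muc5ac accounted for 4.87% and 7.81% of these mucin reads in Ctrl crypts and for 18.5% and 23.0% in Gli1-PtgscKO crypts, whereas Muc2 accounted for 30.6% and 27.3% and then for 19.7% and 16.3%. Muc13 accounted for 43.5% to 48.9% in the 4 crypt libraries. The 95% Wilson bounds of each share of the mucin reads lay within 0.488 percentage points of it, and all intervals cover counting error only.

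**Figure D2:**
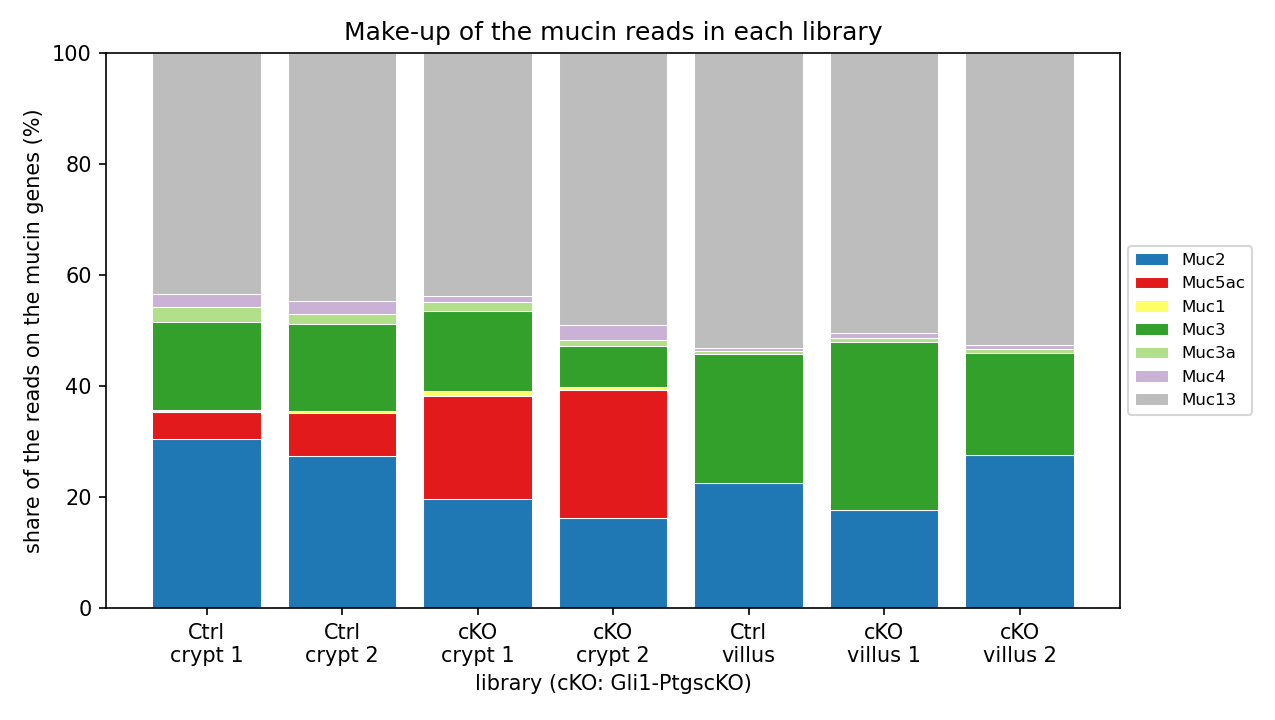
Share of the reads on the mucin genes (vertical axis, percent) taken by each gene in each distinct library of crypts and villi. Muc5ac rises from 4.87% and 7.81% in Ctrl crypts to 18.5% and 23.0% in Gli1-PtgscKO crypts and is hardly seen in villi.

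Levels of different genes were compared as RPM divided by the kilobases of annotated exons. In Ctrl crypts the order was Muc13 (448 to 505), Muc3 (246 to 290), Muc2 (117 to 151), Muc3a (28.5 to 48.3), Muc5ac (16.0 to 22.1), Muc4 (5.82 to 6.93) and Muc1 (3.59 to 4.94), and the ranges of neighbouring genes did not overlap. In Gli1-PtgscKO crypts Muc5ac (35.0 to 55.2) stood above Muc3a (14.9 to 17.4) and next to Muc2 (56.3 to 59.1), and Muc1 (7.08 to 8.24) stood above Muc4 (2.10 to 5.97). Muc13 (293 to 416) and Muc3 (97.9 to 150) remained first and second. The place of Muc2 depends on its length. Per kilobase of its longest annotated transcript, Muc2 was at 284 to 369 in Ctrl crypts against 258 to 304 for Muc3, which overlap. That value sets the reads of the whole Muc2 gene against the 2926 bases of its longest transcript, although its annotated exons cover 7127 bases. It can therefore overstate Muc2.

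Other mucin and mucin-like genes were few in these libraries. Of 16 in the list, 4 were measured in crypts: Mucl3, Muc16, Muc6 and Cd164. Mucl3, a mucin-like gene, was at 1671 and 2517 normalized counts in Ctrl and at 4312 and 4446 in Gli1-PtgscKO crypts, without overlap. It passed the threshold like Muc5ac, with a log2 fold change of 1.09 (SE 0.28, unadjusted p = 0.00628 by limma-trend). Muc6, the gel-forming mucin of gastric glands that lies 35.0 kb upstream of Muc2 on chromosome 7, was at 1562 and 835 in Ctrl and at 625 and 1317 in Gli1-PtgscKO crypts, which overlapped. Its log2 fold change was -0.33 (95% interval -1.40 to 0.74). Muc16, a very large membrane mucin, was at 862 and 227 against 135 and 275, and its lower mean rested on 1 Ctrl library. Cd164, a sialomucin, was at 8788 and 9344 against 7123 and 7759, lower in both libraries without passing the threshold (log2 fold change -0.29). Muc5b, the neighbour of Muc5ac, was not among the listed genes in either tissue.

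In the 6 lists of genes that build, release and partner mucins, Tff2 was the only one called in crypts. Over all crypt genes, 0.173% were called higher and 0.00866% lower. In both Gli1-PtgscKO crypt libraries 9.73% of all genes were higher and 11.3% lower. Of the 14 listed genes for the first O-glycan sugars and cores, 0 were called, 3 were higher and 1 lower in both Gli1-PtgscKO libraries, and the median log2 fold change was 0.01. Gcnt3, a core enzyme of mucin glycans, went from 1348 and 1486 normalized counts to 1848 and 1643, and Galnt1, one of the enzymes that add the first sugar, from 4048 and 4233 to 2610 and 3792. Among 25 genes for extension and capping, 0 were called, 4 were higher and 3 lower, with a median of 0.06. The widest differences there were those of Fut2, the secretor fucosyltransferase, at 83.4 and 150 in Ctrl and 231 and 209 in Gli1-PtgscKO crypts, and of the sialyltransferase St3gal1, at 588 and 566 and then 164 and 504. Neither passed the threshold, with unadjusted p of 0.0593 and 0.0955 by limma-trend.

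Of 15 genes for folding, packaging and mucus layer partners, 1 was called, 2 were higher and 0 lower in both Gli1-PtgscKO crypt libraries, with a median of 0.19. The called gene was Tff2, a trefoil peptide that is secreted with gastric gland mucin, at 5274 and 4790 in Ctrl and 25307 and 10074 in Gli1-PtgscKO crypts (log2 fold change 1.67). Agr2, the disulfide isomerase that Muc2 needs for its folding, was at 4603 and 4811 and then at 9393 and 5075. For release, hydration and shedding, 0 of 11 genes were called and 1 was lower in both, the chloride channel gene Cftr (5928 and 6340, then 3946 and 5869). For the apical partners of membrane mucins, 0 of 10 were called and 1 was higher in both. For the transcription factors of mucin-producing cells, 0 of 15 were called and 3 were higher in both, among them the goblet cell factors Foxa3 (493 and 511, then 813 and 519) and Klf4 (1678 and 1949, then 2032 and 2376). The median of the factors was 0.20.

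Of the 9 goblet cell markers other than Muc2, all were listed in crypts, 0 were called, 0 were lower and 1 was higher in both Gli1-PtgscKO libraries. These counts are near the 11.3% and 9.73% of all genes that were lower and higher in both. Over the 9 the median log2 fold change was 0.20. Their summed level was 80223 and 97732 normalized counts in Ctrl crypts and 91243 and 86339 in Gli1-PtgscKO crypts. Fcgbp, a mucus protein bound to Muc2, overlapped at 53673 and 61791 in Ctrl and 42519 and 57112 in Gli1-PtgscKO crypts. With the length correction this median was 0.03.

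Gastric surface cell markers were higher along with Muc5ac. Besides Muc5ac, 7 of the other 8 were listed in crypts, without Tff1. All 7 were higher in both Gli1-PtgscKO libraries, against 9.73% of all genes. Of these 7, 5 passed the threshold, against 0.173% of all genes called higher, and the median log2 fold change was 1.32. Their summed level was 15704 and 21107 normalized counts in Ctrl crypts and 73801 and 38747 in Gli1-PtgscKO crypts. Muc5ac was highest in the second Gli1-PtgscKO library and the summed markers in the first. Of the 8 symbols searched for as gastric gland cell markers 3 were listed, and among the 8 Gif and Cblif name the same gene. Pgc and Cblif passed the threshold, with log2 fold changes of 1.16 and 1.67, and Muc6 did not. With the length correction the values of Pgc and of the surface cell marker Vsig1 were 0.90 and 0.95, under the limit of 1, so these calls were lost. The study had already reported Anxa10, Gkn1, Gkn2 and Pgc, like Muc5ac and Tff2, as raised in its crypt RNA-seq. The rise of these genes here comes from the same libraries and is no separate support. Pancreatic acinar cell markers also had a higher median in crypts. Of 8, 4 were listed in crypts, 0 were called and 2 were higher in both Gli1-PtgscKO libraries, and their median log2 fold change was 0.76. Their summed level was low, at 606 and 318 normalized counts in Ctrl and 1190 and 865 in Gli1-PtgscKO crypts, most of it from the elastase gene Cela1 (345 and 206, then 970 and 511). In villi the 4 listed acinar markers went the other way, with a median of -1.13. They summed to 287 normalized counts in Ctrl and to 79.5 and 272 in Gli1-PtgscKO villi. The part of these cell type differences in the Muc5ac result was not tested.

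**Figure D3:**
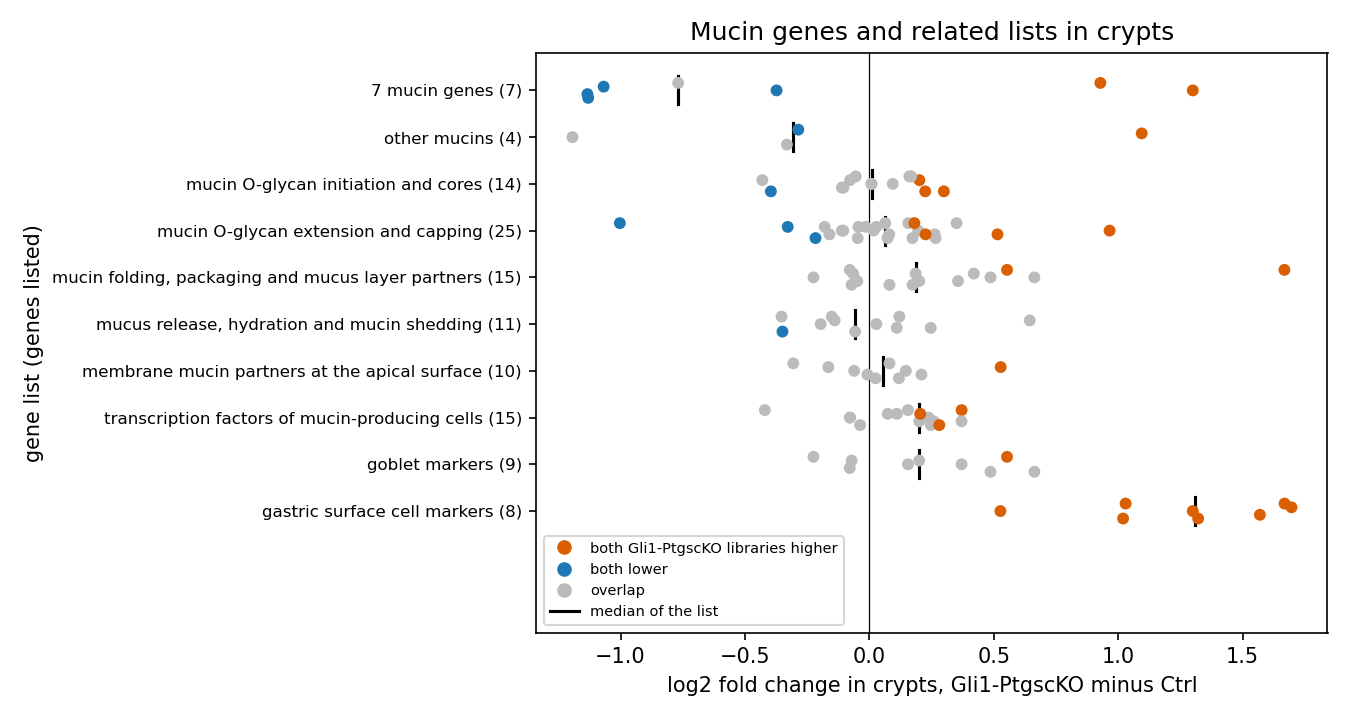
Log2 fold change in crypts, Gli1-PtgscKO minus Ctrl (horizontal axis), of each listed gene in the 7 mucins and in related gene lists (vertical axis, with the number of listed genes). Black bars are list medians, which lie near 0 for the glycan lists, at 0.20 for goblet markers and at 1.31 for gastric surface cell markers with Muc5ac included.

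In villi the lower levels of Muc2, Muc3, Muc3a and Muc13 seen in crypts were not found, whereas Muc5ac was again higher, at few reads. Muc2 was at 5708 normalized counts in the Ctrl library and at 4691 and 7710 in the Gli1-PtgscKO libraries, on either side of it. Muc3 was at 5834 in Ctrl and at 8033 and 5096 in Gli1-PtgscKO villi, and Muc13 at 13415 and then 13394 and 14690. For these 3 genes the Ctrl value lay between the Gli1-PtgscKO values, and the log2 fold changes were 0.08 (95% interval -0.66 to 0.81), 0.13 (-0.56 to 0.83) and 0.06 (-0.39 to 0.51). These intervals assume that the lone Ctrl library varies like the Gli1-PtgscKO pair.

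Muc3a was at 141 normalized counts in Ctrl villi and at 218 and 221 in Gli1-PtgscKO villi, and Muc4 at 138 and then 239 and 201. Both were above the Ctrl library in both Gli1-PtgscKO libraries, with log2 fold changes of 0.63 (adjusted p = 0.0471 by limma-trend) and 0.67 (adjusted p = 0.0540). In this fit 34.8% of all villus genes had an adjusted p under 0.05, 9.82% were called higher and 6.69% lower at the threshold, and 43.7% and 44.2% lay above and below Ctrl in both Gli1-PtgscKO libraries. A p from 1 Ctrl library says that these libraries differ, and differing was common among villus genes. In both Gli1-PtgscKO villus libraries the difference from Ctrl rose with transcript length over 12698 genes (Spearman's rho 0.543 and 0.507). With the length correction the Muc4 value turned to -0.42, and that of Muc3a was 0.97. Both genes were at higher levels in crypts than in villi, and markers of other cells differed in the same libraries. The stem cell markers summed to 2992 normalized counts in Ctrl villi and to 5034 and 4071 in Gli1-PtgscKO villi, with 5 of 7 higher in both libraries, 1 lower and 1 called, the cotransporter gene Slc12a2. The enterocyte markers summed to 502335 and then to 387626 and 347503, with 6 of 10 lower in both, 1 higher (Sis) and 0 called. The immune markers summed to 24171 and then to 7062 and 7373. Of these 8, 5 were lower in both and 4 called lower, and 1 was higher in both and called higher. The part of these differences in the villus values was not tested.

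Muc5ac had 0 reads in the Ctrl villus library, and 43 and 15 reads in the Gli1-PtgscKO villus libraries. Of the reads on listed genes these were 2.73 and 1.11 RPM, 13.3-fold and 5.41-fold as high as a floor of 3 reads in the Ctrl library. The floor was a fixed number and the reads above it were taken as observed, so these folds are not lower bounds. The 95% counting interval reached 3.69 reads in the Ctrl library. It ran from 31.1 to 57.9 and from 8.40 to 24.7 reads in the Gli1-PtgscKO libraries. These intervals cover counting error only. The 4 other gastric surface cell markers listed in villi summed to 90.4 normalized counts in Ctrl and to 337 and 176 in Gli1-PtgscKO villi. All 4 were above Ctrl in both libraries, as were 43.7% of all villus genes, and 0 of the 4 were called. Muc5ac was called by the fit, but its fitted fold change depends on the pseudocount and is not given. Crypts of the same genotype held Muc5ac at 376 to 594 RPM, so the villus level was low.

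The 6 mucins together took 0.149% of the reads on listed genes in Ctrl villi (95% Wilson interval 0.147% to 0.151%) and 0.221% (0.219% to 0.223%) and 0.215% (0.212% to 0.217%) in Gli1-PtgscKO villi. On this scale of library size the median log2 fold change of all villus genes was 0.42, so a higher share was common among villus genes, and on normalized counts Muc2, Muc3 and Muc13 had the small values given above. Of the list of other mucin and mucin-like genes, 3 were measured in villi. Mucl3 was at 6.95 normalized counts in Ctrl villi and at 19.1 and 7.73 in Gli1-PtgscKO villi. Mcam, which encodes an adhesion molecule rather than a mucin, was at 45.2 and then 29.1 and 33.8. Cd164 was at 1132 and then 1489 and 1535. None of these 3 passed the threshold.

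**Figure D4:**
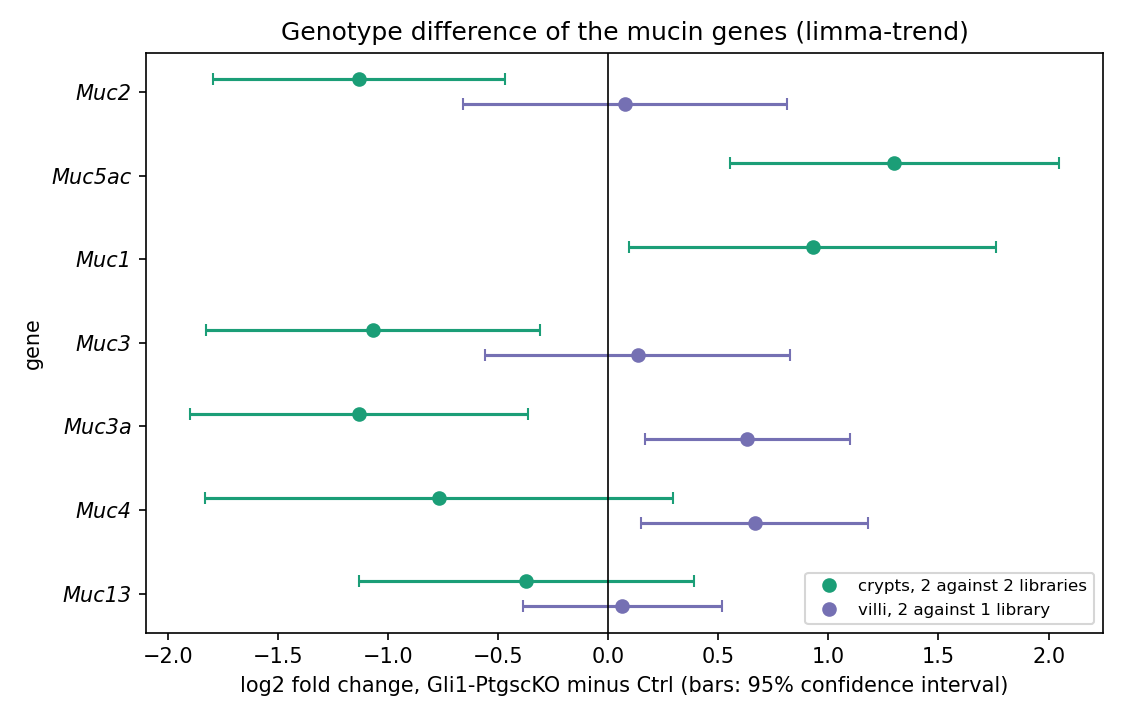
Log2 fold change of each mucin gene, Gli1-PtgscKO minus Ctrl (horizontal axis), with 95% confidence intervals from limma-trend, in crypts and villi. The crypt values of Muc2, Muc3 and Muc3a lie near -1.1 and their villus values at or above 0, and Muc5ac in villi is left out because Ctrl was at 0.

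The genotype effect in crypts minus that in villi was tested on the 11227 genes of both tissues. It was -1.76 for Muc3a (SE 0.45, 95% interval -2.82 to -0.71), which was lower in both Gli1-PtgscKO crypt libraries and higher in both Gli1-PtgscKO villus libraries. The unadjusted p was 0.00522 by limma-trend, and the adjusted p 0.143. Of all genes, 6.95% were lower in both crypt and higher in both villus libraries of the mutants. For Muc2 the difference was -1.21 (SE 0.47, unadjusted p = 0.0350, adjusted p = 0.175 by limma-trend). Its unadjusted p was 0.121 without the first and 0.0552 without the second Ctrl crypt library, and 0.134 without the second Gli1-PtgscKO villus library. It was -1.20 for Muc3 (SE 0.52, unadjusted p = 0.0534). For Muc4 and Muc13 it was -1.43 and -0.44, with unadjusted p of 0.0648 and 0.338. With the length correction the Muc4 difference was -0.0176 (unadjusted p = 0.960 by limma-trend). For Muc5ac the unadjusted p was 0.00139 and the adjusted p 0.135 by limma-trend, but the size of the difference depends on the pseudocount, since the Ctrl villus library had 0 reads, and is not given. At an unadjusted p under 0.05 there were 2873 genes, 25.6%, and at an adjusted p under 0.05 limma-trend, the one tool run for this comparison, called 0, 0%. Without the first Gli1-PtgscKO crypt library 1371 genes had an adjusted p under 0.05, and without the second 5253. A difference between tissues at an unadjusted p under 0.05 was therefore common, and no mucin stood out after adjustment.

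Crypts and villi were normalized apart, so their levels are set side by side as RPM, without a test. In Ctrl mice Muc2 was 2.83-fold, Muc3a 8.67-fold, Muc4 9.19-fold, Muc13 1.82-fold and Muc3 1.51-fold as high in crypts as in the villus library. In Gli1-PtgscKO mice the same quotients were 0.838 for Muc2, 1.74 for Muc3a, 2.69 for Muc4, 0.961 for Muc13 and 0.455 for Muc3. On this scale the genotype effect in crypts minus that in villi had a median of -0.52 over all genes, so lower quotients in the mutants were common. In the mutants the crypt and villus ranges of Muc2 and Muc13 overlapped, whereas Muc3 was lower in crypts (190 to 291 RPM) than in villi (391 to 667). The ratio of Muc3a to Muc3 reads was 0.113 to 0.162 in the 4 crypt libraries and 0.0242 to 0.0434 in the 3 villus libraries.

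The genes with the profile most like each mucin were found among 11219 genes with a mean of at least 10 normalized counts in both tissues, by the root mean square difference of log2 profiles centred within each tissue over the 7 distinct libraries. For Muc2 and for Muc3a the nearest was Lpin1, at 0.24 for each. For Muc3 it was Tmem117 at 0.16, for Muc4 Depdc5 at 0.11 and for Muc13 Wiz at 0.04. For Muc5ac the nearest was Zfp40 at 0.57, but this distance depends on the pseudocount, since the Ctrl villus library had 0 Muc5ac reads. Muc5ac reached the mean of 10 in villi only through the Gli1-PtgscKO libraries. Zfp40 did not share its crypt rise, with a log2 fold change of 0.07 in crypts. A flat profile like that of Muc13 lies close to many genes, and the measure is a description over few libraries.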

How the data were processed

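RNA of crypts and villi was sequenced by the authors in 2 biological replicates for each genotype. Per the study's methods, paired reads were aligned to mm10 with STAR, reads were counted for each gene and groups were compared with DESeq2; the counting program, strand setting and annotation are not given in the sources used here, and the kits given in the labels are not those of the methods. Without a stated strand setting, reads of overlapping or antisense genes cannot be told apart. The deposited values are a signal, the read count of a gene over the DESeq2 size factor of its library; 100% of them were whole multiples of 1 read within 0.01 read, so whole reads were recovered. The authors' columns of fold changes and p-values were not used. The tables leave out weakly expressed genes, with the smallest mean at 48.4 normalized counts in crypts and 8.82 in villi.

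Because the values are normalized, limma-trend (limma 3.58.1, R 4.3.3) was fitted to log2(value + 1) of all genes with a mean of at least 1, two-sided with Benjamini-Hochberg adjustment. Fold changes are on that scale. A gene was called at an unadjusted p under 0.01 with an absolute log2 fold change over 1, the study's threshold. No source places the replicates in separate litters or days, and p-values measure the spread between these libraries. The genotype fits were also run on simulated libraries, with larger changes than the crypt mucins showed and without a length trend. No result here rests on that run. The members, the gene lists and the tests were chosen with earlier results of these data known. Named were the 7 members, each measured gene of the list of other mucins, up to 2 genes that rose and 2 that fell most without overlap in each other list, and the 3 nearest profiles of each member, of which the first is given; marker genes and targeted genes were added where a result turned on them. The counts, lists and medians stand without a set test. Alternatives were edgeR 4.0.16 and DESeq2 1.42.0 on recovered reads, library size scaling, a pseudocount of 0.1, no filter on low values or one that asks each library for 10 counts or more, the replicate number as a block, each library left out, and a lowess correction (span 0.3) for transcript length, taken from GENCODE M21, which matched 11552 crypt and 12698 villus genes. Promoters are from RefSeq. Columns of unmapped samples were 0.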

Additional observations from a re-analysis of the deposited data

Results flagged for a closer look

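The genotype effect differed between crypts and villi for Muc3a and Muc2 at an unadjusted p under 0.05. For Muc3a the crypt effect minus the villus effect was -1.76 on the log2 scale, with an effect of -1.13 in crypts and 0.63 in villi, and it was lower in 2 of 2 Gli1-PtgscKO crypt libraries and higher in 2 of 2 villus libraries (adjusted p = 0.143 by limma-trend). For Muc2 it was -1.21, with -1.13 in crypts and 0.08 in villi, lower in 2 of 2 crypt libraries and on either side of Ctrl in villi (adjusted p = 0.175 by limma-trend). The Muc2 difference lost its unadjusted p under 0.05 with lengths taken from the union of exons (-0.70, unadjusted p = 0.162), without the first Ctrl crypt library (-1.04, 0.121), without the second (-1.37, 0.0552) and without the second Gli1-PtgscKO villus library (-0.85, 0.134), all by limma-trend. Neither passed the correction, and 25.6% of all genes had an unadjusted p under 0.05 in this test. Muc5ac also had an unadjusted p under 0.05 in this test (0.00139, adjusted p = 0.135 by limma-trend), but it was higher in both tissues and the size of its difference rests on the pseudocount, because its Ctrl villus library had 0 reads.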

How the results depend on the processing

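Of 98 values of single mucins in crypts under the alternatives, all kept their direction, 78 also kept their side of the threshold, 16 came to pass it and 4 ceased to; of 50 crypt-minus-villus differences all kept their direction, and 37 their side, although that of Muc4 shrank from -1.43 to -0.0176 under the length correction and to -0.46 by union of exons. In crypts, no filter, the filter of 10 counts and the replicate block left the log2 fold changes of the main fit unchanged. The block likewise left those of the length correction unchanged. Directions could not turn in these fits, so their part of the 98 is no check on direction. Crypt log2 fold changes ranged from -1.29 to -0.97 for Muc2, -1.44 to -0.70 for Muc3, -1.49 to -0.78 for Muc3a, -1.46 to -0.08 for Muc4 and 1.03 to 1.62 for Muc5ac. Villus directions turned for Muc4 under the length correction (-0.42 by longest transcript, -0.10 by union of exons, the latter chosen after seeing the data), for Muc2 by union of exons (-0.33), and without 1 Gli1-PtgscKO library for Muc2 (-0.28 to 0.43), Muc3 (-0.20 to 0.46) and Muc13 (-0.00231 to 0.13). Crypt genes called higher (20) and lower (1) became 63 and 15 with the replicate block, 60 and 5 by DESeq2, with 4 lower under library size scaling and under either length correction, 5 lower under length correction with the block and 3 lower by edgeR; genes at an adjusted p under 0.05 (0) became 34 with the block and 11 by DESeq2. Without each crypt library, 15 to 593 were called higher, 3 to 288 lower and 0 to 1987 at an adjusted p under 0.05. Replicate numbers come from the labels alone; same-numbered crypt libraries deviated together with a correlation of 0.247 over 11554 genes, and 2 pairs do not settle whether the numbers pair the libraries. With the block Muc3 and Muc3a passed the threshold in crypts (unadjusted p = 7.01e-04 and 2.16e-04 by limma-trend). The block could not be fitted across tissues or in villi, where the lone Ctrl library carries both numbers. Villus genes called higher (1247), lower (850) and at an adjusted p under 0.05 (4424) became 643, 459 and 2352 under length correction, 704, 542 and 2771 by union of exons, and 2828 and 159 higher and lower under library size scaling, which moved the median of all villus genes to 0.42 (crypts -0.08, differences between tissues -0.52). Crypt-minus-villus genes at an adjusted p under 0.05 (0) became 439 under library size scaling and 0 to 5253 without 1 library, and those at an unadjusted p under 0.05 (2873) 1261 to 6160. List medians in crypts without 1 library ran from -0.0482 to 0.16 for glycan initiation, -0.0816 to 0.16 for extension and capping, 0.0312 to 0.69 for folding and packaging, -0.19 to 0.23 for apical partners and 0.0692 to 0.23 for transcription factors; the transcription factor median was 0.0521 under length correction. The Muc5ac to Muc2 fold ran from 4.02 to 7.21 without 1 library, chosen after seeing the data. The cause of these changes was not tested. Muc5ac in villi lacked 10 counts in every library and has no value under that filter, and a villus library left out leaves 1 against 1 and no test.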
